A study of Sus scrofa with 6 samples.

Results

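AVP and OXT, the genes of the vasopressin and oxytocin precursors, were followed through 6 RNA sequencing libraries of the reproductive axis of sows. Both were chosen by name: they are the 2 rows, of 19465 genes in each deposited table, whose symbol is AVP (ENSSSCG00000007163) or OXT (ENSSSCG00000007164). The libraries came from hypothalamus, pituitary and ovary of Landrace x Large White primiparous sows (sows that have borne a single litter), either in normal estrus or in an anestrus attributed to inactive ovaries. Each tissue and state had 1 library. According to the labels 3 sows were sampled in each state; whether their RNA was pooled, their age and any treatment are not stated there. No difference below therefore has a replicate check: "higher" and "lower" mean the anestrous library against the estrous library of the same tissue, and every 95% interval covers counting error only.

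Vasopressin and oxytocin are closely related peptide hormones made by large (magnocellular) neurons of the paraventricular and supraoptic nuclei of the hypothalamus, usually in separate cells. Each is cut from a precursor that also holds a neurophysin, the carrier protein it is packed with, and travels down axons to the posterior lobe of the pituitary, where it enters the blood. Vasopressin makes the kidney retain water and, released by smaller neurons, stimulates corticotrophs of the anterior lobe. Oxytocin contracts the uterus at birth and ejects milk in suckling. In pigs vasopressin carries a lysine where most mammals carry an arginine. Oxytocin is also made in the ovary of several mammals, chiefly in luteal and granulosa cells. These statements are background and were not measured here.

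In the hypothalamus both genes had many reads in the estrous library and few in the anestrous library. Of 15314325 reads assigned to genes in estrus, 13729 fell on AVP, a level of 896 RPM (reads per 1000000 reads assigned to genes; exact Poisson 95% interval 882 to 912). Of 15812041 in anestrus, 435 did, 27.5 RPM (25.0 to 30.2). By read count, which is not corrected for transcript length, AVP was at place 75 of 15591 detected genes in estrus and at place 5605 of 15437 in anestrus. OXT had 4007 reads in estrus, 262 RPM (254 to 270), and 572 in anestrus, 36.2 RPM (33.3 to 39.3), at places 513 and 4646. The estrous hypothalamus was thus the highest of the 6 libraries for both genes, and by RPM over all reads the anestrous hypothalamus was next for both.

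Pituitary libraries held fewer reads of either gene, and ovary libraries nearly none. AVP had 103 reads in the estrous pituitary and 105 in the anestrous pituitary, 6.06 RPM (4.94 to 7.34) and 6.04 RPM (4.94 to 7.31), which did not differ beyond counting error. OXT had 466 and 231 reads there, 27.4 RPM (25.0 to 30.0) and 13.3 RPM (11.6 to 15.1), and those intervals do not overlap. In the ovary AVP had 0 reads in estrus, which allows up to 0.194 RPM by a limit of 3 reads, and 4 in anestrus (0.243 RPM, 0.0663 to 0.623). OXT had 1 and 3 ovarian reads (0.0646 and 0.183 RPM). A difference between the ovaries was not detectable at this depth for either gene.

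**Figure D1:**
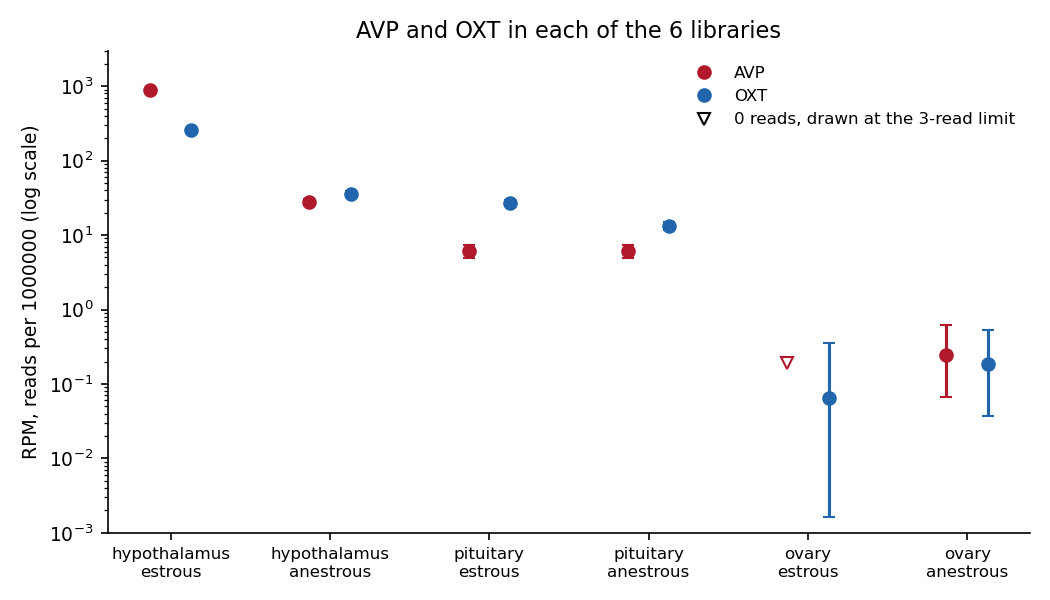
AVP and OXT in RPM, reads per 1000000 reads assigned to genes (log axis), for each tissue and state, 1 library each, with exact Poisson 95% intervals and an open triangle at the 3-read limit where a library had 0 reads. Both genes are highest in the estrous hypothalamus (896 and 262 RPM) and next highest in the anestrous hypothalamus (27.5 and 36.2 RPM).

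The place of OXT in the anestrous hypothalamus and the estrous pituitary depended on the few genes that fill the pituitary libraries. The 10 genes with most reads took 33.3% and 35.9% of the pituitary reads, against 20.3% and 21.9% in the hypothalamus. With those genes left out of the totals, OXT stood at 46.3 RPM in the anestrous hypothalamus (42.6 to 50.3) and 41.1 in the estrous pituitary (37.4 to 45.0), and these intervals overlap, so the order of the pair of libraries is not settled for OXT. AVP stood at 35.2 and 9.08 in the same libraries, with intervals that do not overlap.

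Between the states, hypothalamic AVP had a normalised count (reads divided by the authors' size factor) of 13514 in estrus and 442 in anestrus, 30.6-fold lower (27.8 to 33.7). OXT had 3944 and 581, 6.79-fold lower (6.22 to 7.42). On the log2 scale, with a pseudocount of 1 that makes little difference at these counts, the values were -4.93 and -2.76. A gene was counted as different when its normalised count averaged at least 50 over both libraries and its log2 fold was 1 or more in size (2-fold). By that rule 119 of 11390 hypothalamic genes were lower, 1.04%, and AVP and OXT were both among them. Over all hypothalamic genes, 147 higher and 119 lower genes became 113 and 167 with equal library totals. AVP had the second lowest log2 fold and OXT the sixth lowest of all genes over that mean. AVP had an adjusted p of 3.29e-36, the smallest of its table, and OXT one of 1.04e-16, both from the authors' deposited table. Those p-values compare 2 libraries and carry no measure of the spread between sows.

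The genes beside AVP and OXT in that order were of several kinds. Next to AVP came SQRDL, a mitochondrial sulfide-oxidising enzyme gene, at -6.31, and the dopamine transporter gene SLC6A3 at -4.42. TUBA1C, a tubulin gene, at -3.83 and MYBPC3, a muscle myosin-binding protein gene, at -3.37 lay between AVP and OXT. Following OXT among genes with a symbol were the chemokine gene CXCL10 at -2.68, POMC, the melanocortin precursor gene, at -2.61 and KISS1, the kisspeptin gene, at -2.50. Counting intervals of OXT overlapped those of CXCL10 (6.50-fold lower, 5.08 to 8.43) and POMC (6.12-fold lower, 5.66 to 6.62). The OXT interval also overlapped those of MYBPC3 (7.25 to 16.4) and KISS1 (3.75 to 9.54). The AVP interval overlapped those of SQRDL and SLC6A3, and SQRDL had 162 reads in estrus and 1 in anestrus. Neither the place of AVP nor that of OXT in this order is settled by these reads. Abundance set AVP, OXT and POMC apart from most of these genes. Of 2976 genes with a hypothalamic mean of 1000 or more, a minimum chosen after the values were seen, 8 were lower by the same rule, 0.269%, and the 4 with the lowest values were AVP, TUBA1C, OXT and POMC.

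**Figure D2:**
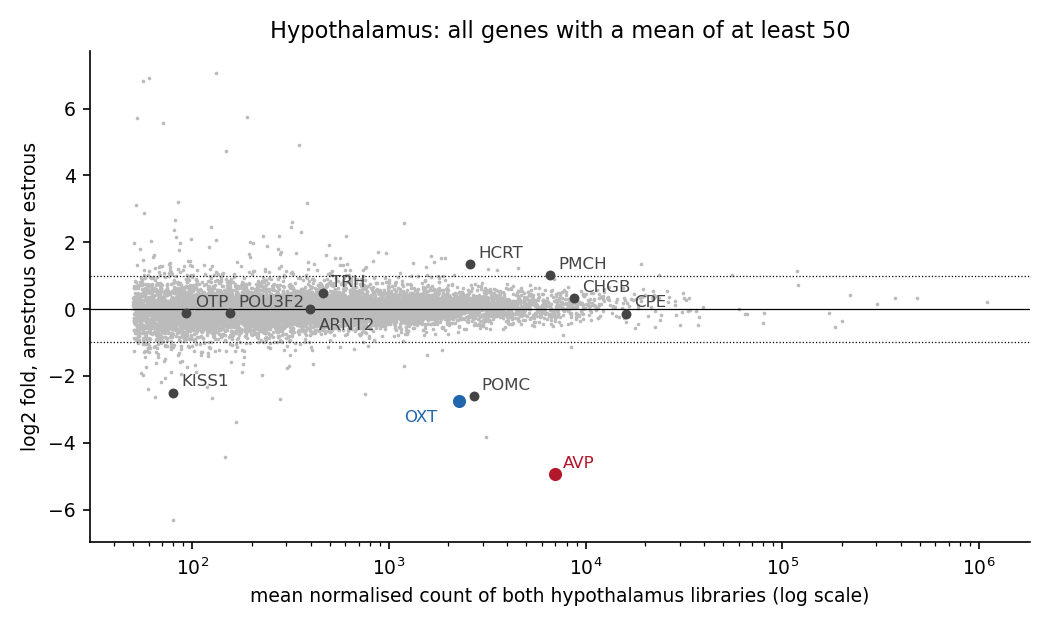
Log2 fold in the hypothalamus (anestrous over estrous) against the mean normalised count of both libraries (log axis) for the 11390 genes with a mean of at least 50, with dotted lines at 2-fold. AVP at -4.93 and OXT at -2.76 lie below nearly all other abundant genes, POMC (-2.61) lies beside OXT, OTP, POU3F2 and ARNT2 lie near 0, and TRH is at 0.48.

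AVP was lower by more than OXT, and a ratio taken within a library shows this without any scaling. The estrous hypothalamus had 3.43 AVP reads for each OXT read (exact binomial 95% interval 3.31 to 3.55), and the anestrous hypothalamus had 0.760 (0.670 to 0.863). The ratio was 4.51-fold lower in anestrus (3.95 to 5.14). In the pituitary the ratio was 0.221 in estrus (0.177 to 0.274) and 0.455 in anestrus (0.357 to 0.575), 2.06-fold higher (1.48 to 2.85). Because the transcripts differ in length, and their lengths in the authors' annotation are not given in the files, a ratio above or below 1 says nothing of which transcript was more numerous. Only the difference of a ratio between libraries is read. The neurophysin parts of both precursors are very similar in mammals, and how the authors counted reads that match both genes was not given, so some reads may be assigned to the wrong member of the pair.

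**Figure D3:**
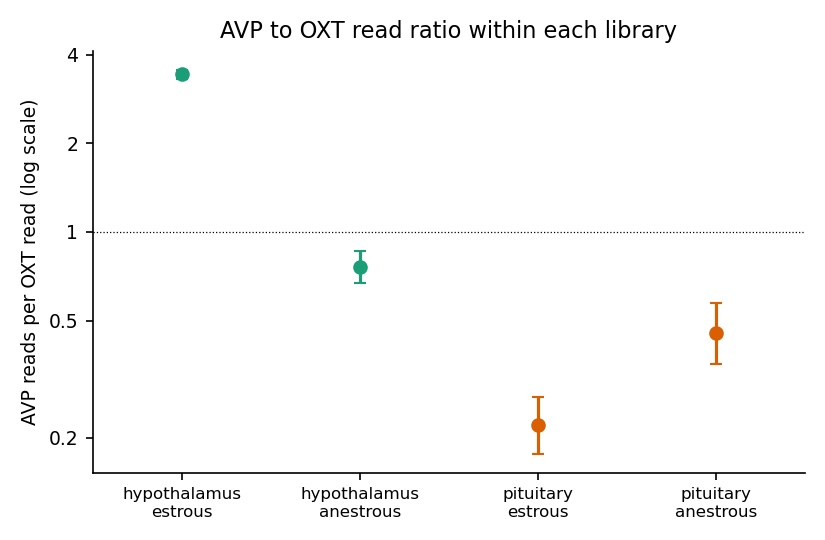
AVP reads per OXT read (log axis) within each hypothalamus and pituitary library, with exact binomial 95% intervals. Hypothalamic ratios are 3.43 (estrus) and 0.760 (anestrus), and the ratio lies at 0.221 and 0.455 in the pituitary libraries, with no overlap of intervals within either tissue.

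The share of neuropeptide reads that fell on the pair also differed, again by reads and not per length. Taking AVP, OXT and the 23 other hypothalamic neuropeptide genes found by name, AVP held 38.3% of 35840 reads in estrus (exact binomial 95% interval 37.8 to 38.8) and 2.06% of 21134 in anestrus (1.87 to 2.26). OXT held 11.2% (10.9 to 11.5) and 2.71% (2.49 to 2.93). AVP ranked 1 of 25 in estrus and 14 in anestrus, and OXT 4 and 8. PMCH, the melanin-concentrating hormone gene, held 12.3% and 40.8%, and HCRT, the orexin gene, 4.14% and 17.2%. Without AVP, OXT and POMC the remaining peptides summed to 875 RPM in estrus and 1226 in anestrus.

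Among the 16 other neuropeptide genes that reached a mean of 50, 2 were lower (POMC and KISS1), against 1.04% of all genes. Another 2 were higher (HCRT at a log2 fold of 1.34 and PMCH at 1.01), against 1.29%, and 12 stayed within 2-fold. With equal library totals PMCH was at 0.92, inside 2-fold, and GAL, the galanin gene, at -1.09, outside it. Their median log2 fold was 0.0081, beside 0.011 for all hypothalamic genes over that mean. Peptides of other neurons that also sit in the paraventricular nucleus, named after their values were seen, were CRH, the corticotropin-releasing hormone gene, at -0.27 (91 and 73 reads), TRH, the thyrotropin-releasing hormone gene, at 0.48 (390 and 528), and SST, the somatostatin gene, at 0.19 (1064 and 1180).

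Transcription factors and other genes known from magnocellular neurons did not share the difference of AVP and OXT. None of the 8 with a mean of at least 50 was 2-fold different, and the median log2 fold was -0.03. OTP, a factor needed for these neurons to form in mice, had 99 reads in estrus and 88 in anestrus (1.09-fold lower, 0.810 to 1.47). POU3F2, another such factor in mice, had 165 and 148 reads (1.08-fold lower, 0.860 to 1.36). ARNT2, the partner of SIM1 in mice, had 404 and 394 reads (ratio 1.01, 0.874 to 1.16), and CREB3L1, a factor that drives the vasopressin promoter in rats, had 200 and 184 (1.05-fold lower, 0.858 to 1.29). SIM1 itself had 28 and 20 reads, below that mean. RORA, a nuclear receptor gene expressed widely in brain, had the largest value of the list, 0.75. These genes are also expressed outside magnocellular neurons.

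Measured genes of the machinery that turns such precursors into hormone were likewise within 2-fold. Of 7 processing genes over the mean of 50, none was different and the median was -0.14. CPE, the carboxypeptidase that trims peptide ends, had 17022 and 14982 reads (-0.14), and PAM, which adds the terminal amide that both hormones carry, had 10335 and 10380 (0.05). PCSK2, a convertase that cuts precursors, was at 0.42, SCG5, its chaperone, at 0.34 and PCSK1N, a convertase inhibitor, at -0.25. The 8 rows for secretory granule genes, which include 2 rows named PTPRN2, had a median of 0.26 and none was 2-fold different, with RAB3A, a vesicle GTPase gene, at 0.53 and the granin gene CHGB at 0.32. PCSK1 of the processing list and SCG2, VGF, CADPS and SYT4 of the granule list were not found by name. The genes of both lists are also expressed outside magnocellular neurons.

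**Figure D4:**
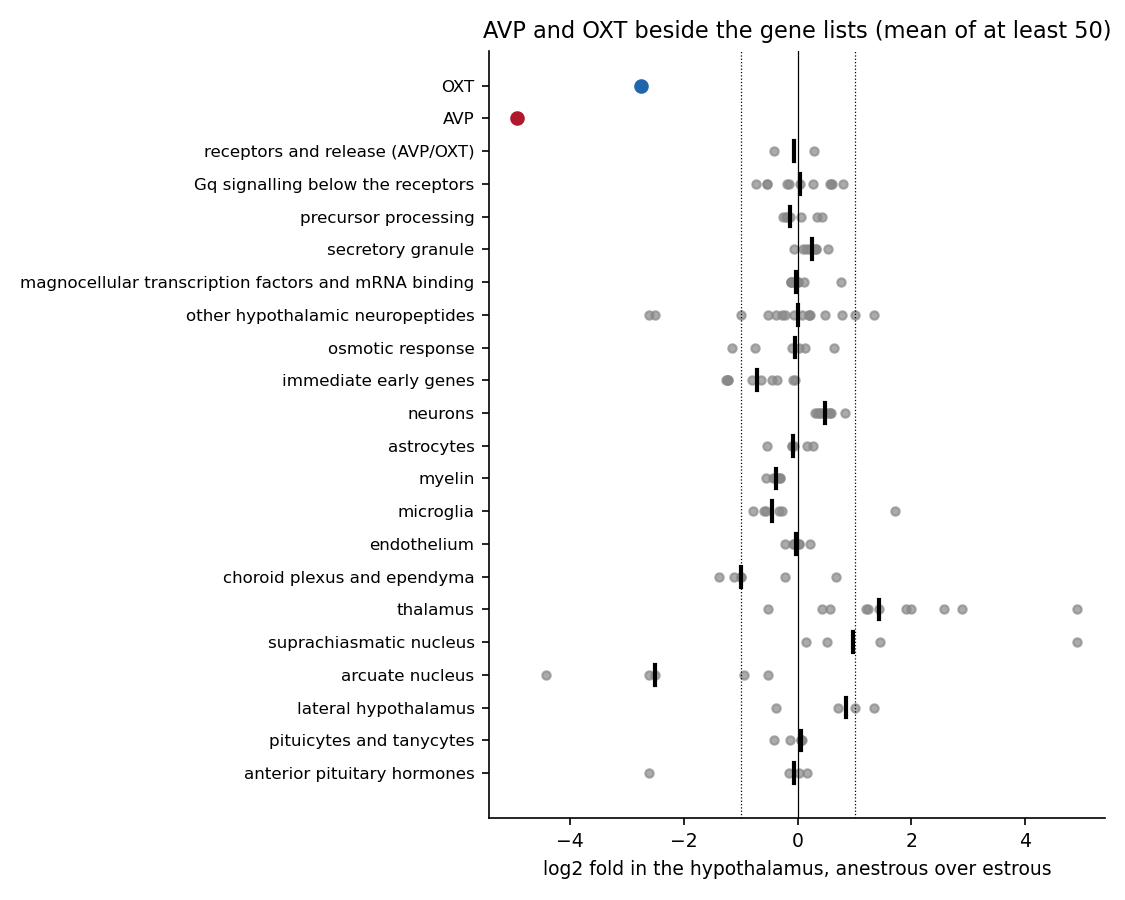
Log2 fold in the hypothalamus (anestrous over estrous) of AVP and OXT and of the members of each gene list with a mean normalised count of at least 50; grey points are genes, black bars are list medians and dotted lines mark 2-fold. The magnocellular, processing and granule lists centre near 0 (medians -0.03, -0.14 and 0.26), whereas arcuate markers lie lower (-2.50) and thalamus markers higher (1.42).

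Markers of some neighbouring regions also differed between the states, in both directions. Thalamus markers were 2-fold higher in 8 of 11 (7 of 10 with equal library totals) and lower in none (median 1.42), against a background of 1.29% higher genes, with RGS16 at 4.90, SHOX2 at 2.88 and NTNG1 at 2.57. The reads of the 12 thalamus markers found summed to 451 RPM in estrus and 997 in anestrus. CALB2 had 2747 of the 6913 reads behind that sum in estrus and 6294 of 15764 in anestrus. PRKCD lay below 0, at -0.53 (640 and 429 reads). Of 5 markers of the arcuate nucleus 3 were lower, against 1.04% of all genes, and none was higher (median -2.50). The lower ones were SLC6A3, POMC and KISS1 (4 of 5 were lower with equal library totals), and TAC3 was at -0.52. Over the 10 found these markers summed to 422 and 96.7 RPM. POMC had 4697 of the 6467 reads behind that sum in estrus and 744 of 1529 in anestrus. Lateral hypothalamus markers were higher in 2 of 4 (1 with equal library totals) and lower in none (median 0.86) and summed to 478 and 867 RPM. For the suprachiasmatic nucleus, which has vasopressin neurons of its own, 2 of 4 markers were higher and none lower (median 0.98), RGS16 and VIPR2 (1.44), and the 9 found summed to 36.9 and 83.3 RPM. RGS16, which is also in the thalamus list, had 22 of the 565 reads behind that sum in estrus and 667 of 1317 in anestrus. With equal library totals 2 of 5 were higher and the median was 0.42. Among markers below the mean of 50, SIX6 had 32 and 11 reads, RORB 62 and 38, NMU 12 and 2, and PROK2 1 and 2. VIP, the peptide gene that defines part of this nucleus, had 8 and 6 reads. The part of these regional differences in the AVP and OXT values was not tested. In such bulk tissue fewer cells of a type and less RNA per cell cannot be told apart.

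Markers of cell types were also counted. All 11 neuron markers had log2 folds above 0 (0.31 to 0.83, median 0.49), with SLC32A1, the vesicular GABA transporter gene, highest. They summed to 6732 RPM in estrus and 8583 in anestrus. SLC17A6, at 0.58, is also in the thalamus list. The neuron markers are not specific to magnocellular neurons, and their part in the AVP and OXT values was not tested. All 6 myelin markers lay below 0 (median -0.38, OPALIN at -0.56), and none of the neuron or myelin markers was 2-fold different. Astrocyte markers had a median of -0.08 (GFAP at -0.54) and endothelial markers one of -0.02 (TEK at -0.22), none 2-fold different. Of 6 choroid plexus and ependyma markers 2 were lower, against 1.04% of all genes, and none was higher (median -0.99). TTR was at -1.38 and KCNJ13 at -1.11, while OTX2 lay above 0 at 0.67 (146 and 226 reads). These markers summed to 207 and 93.4 RPM, and with equal library totals 4 of 6 were lower. Microglia markers were higher in 1 of 6, CSF1R at 1.70, against 1.29% of all genes, and lower in none (median -0.45). The 5 others lay below 0, from P2RY12 at -0.78 to C1QA at -0.27. Pituicyte and tanycyte markers (median 0.06) had no 2-fold difference, and of the anterior pituitary markers 1 of 4, POMC, was lower (median -0.06). Summed over the 8 anterior pituitary markers found, the level was 460 RPM in estrus and 200 in anestrus. POMC, which is also in the arcuate list, had 4697 of the 7049 reads behind that sum in estrus and 744 of 3166 in anestrus. The rest of the 4 counted above, the hormone genes PRL, GH1 and CGA, had log2 folds of 0.16, 0.03 and -0.16.

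Genes of the response to stimulation and to osmotic stress were also listed. Neither list is specific to neurons, and AQP4 of the osmotic list is also in the astrocyte list. Of 10 immediate early genes, which rise quickly when neurons are stimulated, 4 were lower, against 1.04% of all genes, and none higher (median -0.72), with ATF3 at -1.26, NR4A3 at -1.25, and BTG2 at -1.22. Of 6 genes of the response to osmotic stress, 1 was lower and none higher (median -0.04). That gene was NFAT5, the transcription factor of this response in mammalian cells, at -1.15 (173 and 75 reads), while the carrier gene SLC12A2 was at -0.75 and the channel gene TRPV2 at 0.65.

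Receptors for both hormones were sparse in the hypothalamus. OXTR, the oxytocin receptor gene, had 12 reads in estrus and 14 in anestrus, AVPR2, the kidney-type vasopressin receptor gene, had 1 and 0, and AVPR1B, the corticotroph vasopressin receptor gene, had 0 in both libraries. AVPR1A was not found by name and was not analysed here. LNPEP, whose product degrades oxytocin, had 290 and 211 reads (1.33-fold lower, 1.11 to 1.60). CD38, whose product promotes oxytocin release in mice, had 790 and 932 reads (1.22-fold higher, 1.11 to 1.34). Of the 11 genes for Gq signalling below these receptors none was 2-fold different (median 0.05), with ITPR1, a calcium release channel gene, at 0.80, PRKCA, a protein kinase C gene, at -0.73 and PLCB1, a phospholipase C gene, at 0.60.

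In the pituitary OXT was lower in anestrus, and AVP did not differ beyond counting error. OXT had normalised counts of 453 in estrus and 238 in anestrus, 1.90-fold lower (1.62 to 2.24), a log2 fold of -0.93 that stayed just inside 2-fold. With the library totals made equal it was -1.04 and passed. Lower genes made up 1.90% of 10720 pituitary genes over the mean of 50, and higher genes 1.20%; 129 higher and 204 lower genes became 98 and 277 with equal library totals. AVP had 100 and 108 (ratio 1.08, 0.815 to 1.43), an interval that leaves room for a modest difference in either direction. The authors' deposited table gave an adjusted p of 0.669 for OXT and 1 for AVP. Pituicytes are the glia of the posterior lobe, where vasopressin and oxytocin axons end. All 6 of their markers over the mean of 50 had log2 folds below 0 (-0.87 to -0.64, median -0.76), none of them past 2-fold, beside a median of 0.011 over all pituitary genes. VIM, an intermediate filament gene, was 1.83-fold lower (1.79 to 1.88), CRYM, a thyroid hormone-binding protein gene, was 1.79-fold lower (1.72 to 1.87), and RAX, a homeobox gene that marks them, had 184 and 110 reads (1.58-fold lower, 1.24 to 2.02). The 7 markers found summed to 1590 RPM in estrus and 809 in anestrus. VIM and CRYM are expressed in other pituitary cells too. The part of this list in the OXT difference was not tested.

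Pituitary reads can be set against the hypothalamic reads of the same gene and state. For AVP they came to 0.750% in estrus and 24.1% in anestrus, and for OXT to 11.6% and 40.4%. AVP had 103 and 105 pituitary reads, so its share differed through its hypothalamic reads. Among the 16 other neuropeptide genes with a hypothalamic mean of 50 or more, 9 had a higher share than AVP in estrus and 5 a higher share than OXT, and 4 were above each of them in anestrus. The 16 shares ran from 0% to 17209% (POMC, which corticotrophs of the pituitary make) in estrus, with a median of 1.95%, and had a median of 1.45% in anestrus. The shares of other peptides differed in both directions between the states. GAL was at 5.65% in estrus and 17.0% in anestrus, PENK, the enkephalin precursor gene, at 38.1% and 57.7%, and POMC at 17209% and 44178%. TAC1, the substance P precursor gene, was at 29.8% and 18.7%, CARTPT, the gene of a peptide regulated by cocaine and amphetamine, at 5.78% and 2.28%, and HCRT at 1.08% and 0.193%. PMCH had 4420 and 8633 reads in the hypothalamus and 4 and 7 in the pituitary, 0.0905% and 0.0811%. SST had 0 reads in both pituitary libraries and SIM1 also had 0. In the ovary the 0 to 4 reads of AVP and OXT were few beside the ovarian reads of a gene that marks another tissue: prolactin (PRL) had 842 and 873 reads. PRL also had far more reads at its source, 2136505 and 2682174 in the pituitary. Against the hypothalamus, ovarian reads came to 0% in estrus and 0.920% in anestrus for AVP, and to 0.0250% and 0.524% for OXT. Where the ovarian reads came from was not tested.

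The receptor that differed in the pituitary was AVPR1B. It had 1685 reads in estrus and 398 in anestrus, a ratio of 0.250 (0.224 to 0.279), with an adjusted p of 2.81e-07 in the authors' deposited table. AVPR2 had 22 reads in both pituitary libraries, OXTR had 0 and 1, LNPEP 118 and 105, and CD38 43 in both. RGS2, which shuts off Gq proteins, had 12370 and 5017 reads (-1.22) and was the only lower gene of 9 in the Gq list (median 0.02). PCSK1N was lower at -1.09, the only such gene among 7 processing genes (median -0.17). Of all pituitary genes over the mean of 50, 1.90% were lower.

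In the ovary, where the precursors were at 0 to 4 reads, the oxytocin receptor was the member of the receptor list that differed most. OXTR had 18 reads in estrus and 146 in anestrus, 8.79-fold higher (5.37 to 15.2). The authors' deposited table gave it an adjusted p of 0.352. LNPEP had 90 and 185 reads, 2.23-fold higher (1.72 to 2.90), but its log2 fold was 0.95 with equal library totals and so inside 2-fold. In this tissue 12.3% of 10902 genes over the mean of 50 were higher and 7.95% were lower, so such differences were common; 1343 higher and 867 lower genes became 1033 and 1242 with equal library totals. AVPR2 had 24 and 23 ovarian reads, CD38 30 and 38, and AVPR1B 1 in each. Of 8 granulosa markers 6 were lower (7 with equal library totals) and none higher (median -1.38), and of 6 theca and luteal markers 4 were lower and 2 higher (median -2.07).

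The deposited annotation assigns OXT to an oxytocin signalling pathway and AVP to one for vasopressin-regulated water reabsorption. These gene sets were added after the data were seen. Without OXT the first has 107 genes, of which 94 were over the mean of 50 in the hypothalamus, with 4 higher, against 1.29% of all genes, and none lower (median 0.09). In the pituitary 4 of 78 were lower, RGS2 among them, against 1.90% of all genes, and none was higher (median 0.0059). In the ovary 10 of 80 were higher, OXTR among them, against 12.3% of all genes, and 18 lower against 7.95% (median 0.07, and -0.13 with equal library totals). The water reabsorption set without AVP had no 2-fold difference among 21 hypothalamic genes (median 0.08). It had 1 lower gene of 22 in the pituitary (median -0.11), the water channel gene AQP3 with 557 and 102 reads (5.15-fold lower, 4.17 to 6.43), and 3 higher and 2 lower of 23 in the ovary (median 0.15).

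AVP and OXT lie next to each other in mammals, facing each other tail to tail. In the RefSeq annotation of the pig assembly Sscrofa11.1, used here for gene order since the authors' build was not given, 1 noncoding gene lies between them. In the hypothalamus the 3 nearest measured genes on either side had log2 folds of 0.49 (LZTS3), 0.07 (UBOX5) and 0.19 (FASTKD5) before the pair and -0.25 (MRPS26), 0.10 (PTPRA) and 0.10 (VPS16) after it. MRPS26 encodes a mitochondrial ribosomal protein, PTPRA a tyrosine phosphatase and VPS16 a subunit of a lysosomal tethering complex. None of the 6 was 2-fold different in any of the 3 tissues, except that MRPS26 in the ovary, at -0.95, was at -1.15 with equal library totals. UBOX5 and FASTKD5 overlap in that annotation, so their reads may be shared.

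**Figure D5:**
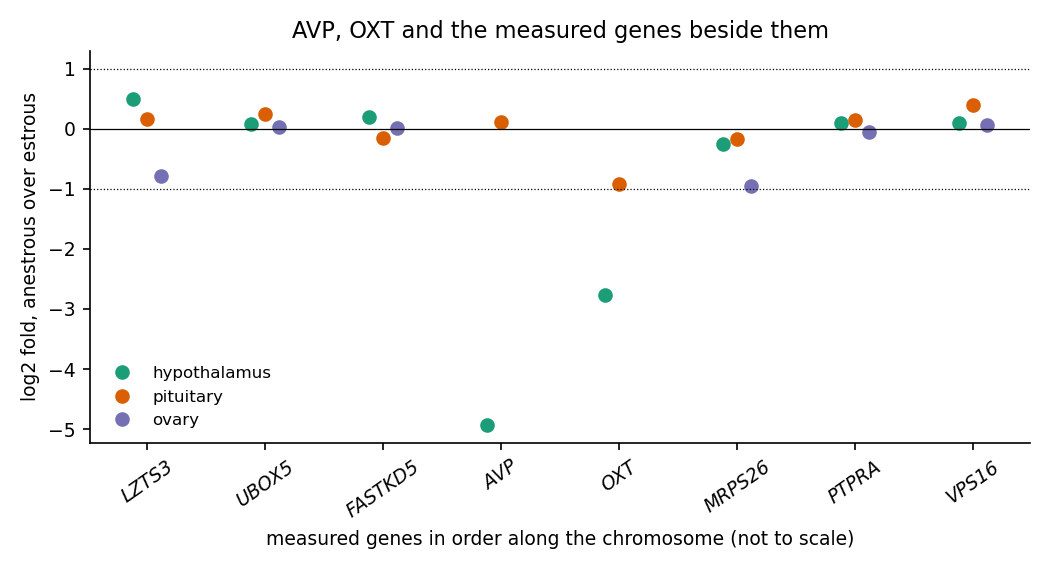
Log2 fold (anestrous over estrous) of AVP, OXT and the 3 nearest measured genes on either side, in chromosome order and not to scale, for each tissue where the mean normalised count is at least 50, with dotted lines at 2-fold. In the hypothalamus AVP and OXT lie at -4.93 and -2.76 and the neighbours between -0.25 and 0.49.

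Over all 6 libraries the profile most like that of AVP was that of OXT. Likeness was measured as the root mean square difference of log2(RPM + 1), each profile centred on its own mean, among 10138 named genes with a hypothalamic mean of at least 50. OXT stood at 1.15 from AVP, followed by GPR37 at 1.38, OMG and PHYHIPL at 1.41 each and RAB11FIP4 at 1.41. OMG encodes a glycoprotein of myelin and GPR37 a receptor of oligodendrocytes and neurons. The measure was not symmetrical in rank: 91 genes were nearer to OXT than AVP was, led by APC2 (0.81), VSTM2L (0.82), SRCIN1 (0.83), MAP2 (0.84) and LY6H (0.86). MAP2, a neuronal microtubule gene, had 34950 and 33058 hypothalamic reads, so it matched OXT in the order of tissues and not in the difference between the states. The 6 values of a profile share their libraries, and the measure is a description only.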

How the data were processed

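RNA of hypothalamus, pituitary and ovary was sequenced after Trizol extraction and TruSeq preparation, per the labels' protocols; TopHat2 2.1.0 is named per the submitters' processing notes. The counter, build, annotation and use of strand: not given in the sources used here. The authors deposited 1 table per tissue with a normalised signal (read count over a size factor) per library and, per the file headers, a fold ratio, p-value and adjusted p-value of DESeq. All values (100%) were whole multiples of the smallest within 0.01 of a read, so reads were recovered by division. Library totals were 15314325 to 17384789. A count test on them (edgeR 4.0.16 quasi-likelihood, tissue as block, R 4.3.3), which treats tissues as replicates, was an alternative.

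No states were tested within a tissue, since each group is 1 library; that alternative alone tested state. Fold intervals are exact conditional binomial (Clopper-Pearson); ratio-of-ratio intervals are conditional odds ratio intervals (SciPy 1.17.1). PCR reads are not independent molecules. Symbols came from the tables (12762 genes) and then a table of Ensembl names (14419 in all). Calling was tested on simulated reads. Members, 22 gene lists and rules were chosen with earlier results of these data known. Named genes were the members, the receptor list, up to 3 members of each other list with the largest hypothalamic log2 fold, 5 nearest profiles per member, and 3 neighbours in fold order and on the chromosome; others were chosen after their values were seen. No sequence of either gene was used here.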

Additional observations from a re-analysis of the deposited data

Results flagged for a closer look

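The number of AVP reads per OXT read differed between the states in opposite directions in hypothalamus and pituitary. The anestrous over estrous ratio of this quantity was 0.222 in the hypothalamus (95% counting interval 0.195 to 0.253) and 2.06 in the pituitary (1.48 to 2.85). The difference between the tissues was not tested, as each tissue has 1 library per state.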

How the results depend on the processing

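The hypothalamic log2 folds lay between -5.42 and -4.92 for AVP and between -3.25 and -2.75 for OXT over the 5 alternatives run for each. Scaling to the neuron markers gave the values farthest from the reported ones, -5.42 and -3.25. Equal library totals moved log2 folds by about -0.09 in the hypothalamus, -0.12 in the pituitary and -0.20 in the ovary, and by less at low counts, where the pseudocount weighs more: ovarian AVP went from 2.37 to 2.29 and ovarian OXT from 1.07 to 0.95. Counts of higher and lower genes became 845 and 877 (hypothalamus), 965 and 1139 (pituitary), and 2534 and 2223 (ovary) with no minimum mean. With a minimum of 200 they were 75 and 29, 48 and 84, and 880 and 501. Requiring in addition an adjusted p of 0.05 or less in the authors' tables left 67 and 31, 36 and 50, and 92 and 15. The edgeR test over tissues called 0 of 14444 genes at an adjusted p of 0.05 and 542 at an unadjusted p under 0.05; AVP had a log2 fold of -2.06 (edgeR adjusted p 0.986) and OXT one of -1.67 (edgeR adjusted p 0.986, unadjusted 0.0298). No paired analysis was possible because each group holds 1 library and the labels number no replicates, and no library could be left out. The ovarian ratio of AVP to OXT, and the ovarian AVP fold without a pseudocount, gave no value because AVP had 0 reads in estrus. Depth limits the ovarian values of both genes.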
